A study of Mus musculus with 2 samples.

Results

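The proteasome genes were taken as the protein-coding genes of the GENCODE M21 annotation whose symbols begin with Psma to Psmg and a number, 50 of 21951 protein-coding genes. The rule uses symbols only and no measured value, though the set was chosen with earlier results of these data known. TET2, an enzyme that oxidises methylated cytosine, was mapped by ChIP-seq in primary adipose-derived stem cells from mouse inguinal white fat, used at the third passage and differentiated into adipocytes with IBMX, dexamethasone and insulin. The experiment had 1 TET2 library and 1 input library of the same kind of cells (chromatin sequenced without immunoprecipitation). The labels give no strain, genotype, age or number of donor animals. Only a list of called peaks was analysed, so the labelled cell type could not be checked against marker expression, and no value has a replicate error. Intervals cover counting error over genes only.

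The proteasome degrades proteins tagged with ubiquitin. Its barrel-shaped core has outer rings of alpha subunits (Psma genes) and inner rings of beta subunits (Psmb genes), some of which are proteases. A cap of ATPases (Psmc genes) and other subunits (Psmd genes) binds, unfolds and feeds in the substrate. Activators (Psme genes) can bind the core in place of the cap, Psmf1 encodes an inhibitor of the core, and Psmg genes encode chaperones that assemble it. Interferon induces alternative catalytic subunits, which form the immunoproteasome that supplies peptides for antigen presentation.

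A TET2 peak midpoint lay within 1 kb of an annotated transcription start site (TSS) for 17 of the 50 genes, or 34.0% (exact 95% binomial interval 21.2% to 48.8%). Over all protein-coding genes the share was 24.6%, which lies inside that interval. The 17 genes had 19 promoter peaks, since Psma7 and Psmf1 had 2 each, and no peak was shared by 2 proteasome genes. Genes with a promoter peak were found on 11 of the 16 chromosomes that carry proteasome genes. Symbols of the pattern include Psmc3ip, which encodes a meiotic recombination factor and no proteasome subunit. It had no promoter peak, and without it the count was 17 of 49 (34.7%).

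Upstream stretches that lie free of any annotated exon are shown for 6 of the genes, to make visible the CpG content described further on. Each is the 150 bases directly before the principal TSS on GRCm38, written 5′ to 3′ along the gene, with every CG dinucleotide in capitals. Psma6, Psmb2 and Psmc4 were chosen because a peak covers all or most of the stretch.
Psma6, chr12:55398625-55398774, plus strand: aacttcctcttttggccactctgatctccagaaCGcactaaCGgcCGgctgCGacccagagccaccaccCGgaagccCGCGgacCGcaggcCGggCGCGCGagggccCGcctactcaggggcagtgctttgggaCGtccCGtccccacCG
Psmb2, chr4:126677480-126677629, plus strand: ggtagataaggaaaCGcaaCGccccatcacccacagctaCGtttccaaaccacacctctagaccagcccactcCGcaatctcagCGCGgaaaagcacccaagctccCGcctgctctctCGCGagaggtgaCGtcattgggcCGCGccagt
Psmc4, chr7:28050102-28050251, minus strand: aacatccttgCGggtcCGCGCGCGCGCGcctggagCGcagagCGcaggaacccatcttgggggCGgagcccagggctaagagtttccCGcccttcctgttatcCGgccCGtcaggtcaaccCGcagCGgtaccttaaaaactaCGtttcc

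The TET2 peak covered all 150 bases at Psma6 and Psmb2 and 99 of them at Psmc4. These stretches hold 16 CG dinucleotides at Psma6, 12 at Psmb2 and 16 at Psmc4. Psmb10, Psmb7 and Psmd4 had no promoter peak and had the lowest promoter CpG ratios among genes with an exon-free stretch.
Psmb10, chr8:105938445-105938594, minus strand: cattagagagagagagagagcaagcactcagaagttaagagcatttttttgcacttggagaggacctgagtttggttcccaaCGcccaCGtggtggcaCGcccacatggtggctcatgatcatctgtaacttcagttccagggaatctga
Psmb7, chr2:38644088-38644237, minus strand: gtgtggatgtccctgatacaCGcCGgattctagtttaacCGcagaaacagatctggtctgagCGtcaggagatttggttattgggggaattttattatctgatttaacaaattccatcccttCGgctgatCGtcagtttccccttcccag
Psmd4, chr3:95042615-95042764, minus strand: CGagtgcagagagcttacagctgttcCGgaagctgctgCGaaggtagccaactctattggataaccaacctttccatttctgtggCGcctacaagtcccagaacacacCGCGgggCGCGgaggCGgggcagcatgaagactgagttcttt

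There were 3 CG dinucleotides upstream of Psmb10, 6 upstream of Psmb7 and 9 upstream of Psmd4. The latter 3 genes were picked for a low CpG ratio, so the contrast between the printed sets is built in by the choice. Over all 24 genes with an exon-free stretch, the 7 with a promoter peak held 8 to 20 CG dinucleotides and the 17 without one 3 to 17, and these ranges overlap. Psmc6 and Psmd14, for example, had 17 each and no promoter peak, while Psmc1 and Psmf1 had 8 each and a promoter peak. The peak covered 0 bases of the stretch at Psme4, Psmf1 and Psmg1 and 1 base at Psmc1. The counts for genes with a promoter peak are thus not all counts under a peak.

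By group, a promoter peak was found at 8 of 19 core genes (42.1%, interval 20.3% to 66.5%) and at 5 of 21 cap genes (23.8%, 8.22% to 47.2%). The activators had one at 2 of 5 genes and the assembly factors at 1 of 4, and the inhibitor Psmf1, which the rule places in no group, had one as well. The share of all protein-coding genes, 24.6%, lies inside the interval of each group. For the inhibitor this says nothing, as the interval of 1 gene (2.50% to 100%) holds that share with or without a peak. The intervals of the activators (5.27% to 85.3%) and the assembly factors (0.631% to 80.6%) are also too wide to say much. The groups were not tested against each other, since genes of 1 library are not replicates.

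**Figure D1:**
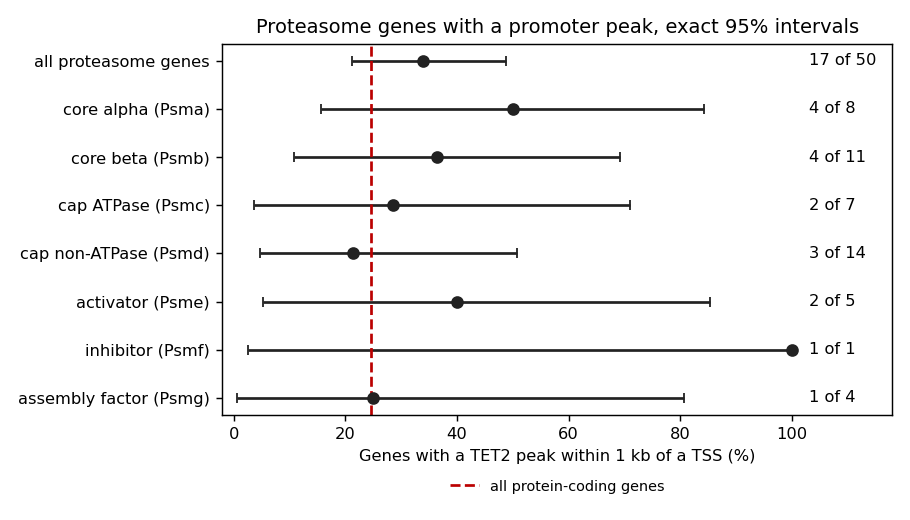
Percentage of genes with a TET2 peak midpoint within 1 kb of a TSS (x axis) for all 50 proteasome genes and each symbol group (y axis). Points are shares, bars exact 95% binomial intervals and the dashed line the 24.6% of all protein-coding genes, which every bar crosses. The bar of the inhibitor, with 1 gene, would cross it with or without a peak.

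In the alpha ring, Psma2, Psma5, Psma6 and Psma7 had a promoter peak, and Psma1, Psma3, Psma4 and the testis-specific Psma8 had none. The peak at Psma6 had a −log10 p of 7.41, and 29.8% of all 14103 peaks had a larger value. At Psma7 a peak of 838 bp, the longest of the group, spanned the TSS with a −log10 p of 7.28, and a second peak lay at -658 bp (5.65). Distances are signed along the gene, negative upstream, from the gene's TSS nearest to the midpoint. Psma5 had its peak at 502 bp, inside the gene and clear of the TSS, with 6.21. Psma2 had the weakest promoter peak of all proteasome genes, with a −log10 p of 4.12, exceeded by 89.9% of the list.

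Among beta subunits the constitutive catalytic genes Psmb5, Psmb6 and Psmb7 had no promoter peak, while 2 of the 3 genes of their inducible counterparts did. Psmb8 carried a peak on chromosome 17 from 34198209 to 34198764 with a −log10 p of 8.28. Its midpoint was 109.5 bp from another TSS of the gene and 696.5 bp downstream of the principal TSS. Psmb9 lay next to a peak from 34187934 to 34188362 with 9.82, a value exceeded by 9.19% of peaks. That peak was wholly outside Psmb9, at -384 bp, and its midpoint was 346 bp from the TSS of Tap1, the divergent neighbour that encodes a subunit of the antigen peptide transporter. The TSSs of Psmb9 and Tap1 are 38 bp apart, so the peak cannot be assigned to either gene by position. Psmb10, the remaining inducible subunit, had its nearest peak at 7125 bp, and the thymus-specific Psmb11 at 6958.5 bp. Over all protein-coding genes the share with a promoter peak was 24.6%. With 3 genes of each kind, and Psmb9 counted through a peak shared with Tap1, the difference between inducible and constitutive subunits is a description.

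Of the non-catalytic beta subunits, Psmb2 had a weak peak over its TSS (midpoint at 14 bp, −log10 p 4.84) and Psmb1 one at -379.5 bp (7.94). The Psmb1 peak was nearer to the TSS of Tbp, which encodes the TATA-binding protein, at 170.5 bp. It lay at -1832.5 bp from the principal TSS of Psmb1, and with RefSeq TSSs Psmb1 had no promoter peak. Psmb3 and Psmb4 had none within 1 kb.

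The base of the cap holds the ATPases together with Psmd1, Psmd2 and Psmd4, and 4 of these 9 genes had a promoter peak. Psmd1, a large scaffold subunit, had a peak of 666 bp on chromosome 1 from 86064571 to 86065236, which lay entirely in annotated exon sequence of the gene. With a −log10 p of 10.1 it was the strongest peak of the cap genes, and 7.97% of all peaks were larger. Psmd2, the other scaffold subunit, had a weak one (4.63). Of the ATPases, Psmc1 had a peak at 142 bp (7.16) and Psmc4 one wholly upstream at -239 bp (7.37). In the lid, which carries the deubiquitinase Psmd14, Psmd11 was the single gene of 8 with a promoter peak, at 271 bp with 6.18 and almost entirely in an intron. The cap assembly chaperones Psmd5, Psmd9 and Psmd10 had none. Over all protein-coding genes the share was 24.6%, and these small counts within the cap were not tested.

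The activator subunits Psme1 and Psme2 form one complex, are induced with the immunoproteasome and lie close to each other on chromosome 14. Psme1 had a peak from 55578234 to 55578673 with a −log10 p of 9.41, its midpoint -2.5 bp from an annotated TSS and 93.5 bp from the principal one. Psme2 had its nearest midpoint at 3486 bp. Psme4, a nuclear activator, had a peak over another TSS (6.47) at 614 bp from the principal TSS. Psme3 and the Psme2b, a gene with a single annotated TSS, had none, with the nearest midpoints at -50898 and 108395 bp. At Psmf1 the larger of the 2 peaks, on chromosome 2 from 151740773 to 151741170, had a −log10 p of 10.5, the largest of the 19, and lay at 338.5 bp from the principal TSS. The midpoint of the other (6.21) lay 90 bp from an internal TSS and 11440 bp from the principal one. Among the assembly factors Psmg1 had a peak at 145 bp (6.80), and Psmg2, Psmg3 and Psmg4 had none.

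**Figure D2:**
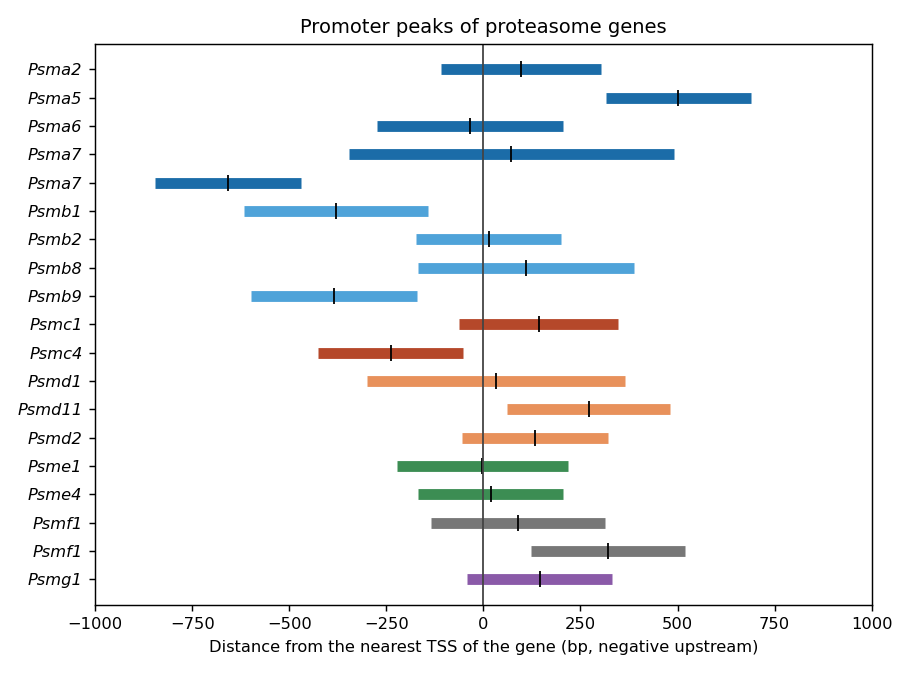
Extent of the 19 promoter peaks (bars, coloured by symbol group) along the gene, in bp from the gene's nearest TSS (x axis, negative upstream), with midpoints as ticks. The peak covered that TSS in 12 of 19, and the midpoint lay at or downstream of it in 13.

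The 19 promoter peaks were set beside all promoter peaks of the list, without a test. Their midpoints lay at a median of 71.5 bp from the TSS (interval of the median -34.5 to 142), against 86.0 bp for the pairs of a protein-coding gene and a promoter peak, and 68.4% were downstream, against 67.2%. The median −log10 p was 7.16 (6.18 to 8.28), against 6.90 for the 5824 peaks within 1 kb of any TSS and 6.21 for all peaks. The values ran from 4.12 to 10.5. At least 8 was reached by 5 peaks, at Psmf1, Psmd1, Psmb9, Psme1 and Psmb8, where the upper quartile of the 5824 peaks was 8.44. Under 5 were 3 peaks, at Psma2, Psmb2 and Psmd2, beside 10.9% of all promoter peaks and 15.5% of all peaks. The median length was 413 bp and the longest 838 bp, and 7 of the 19 had the shortest length of the list, 375 bp. That length is also the lower quartile of all peaks, whose median was 426 bp. The depth of the libraries is unknown from the list, and no read count stands behind these values here.

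**Figure D3:**
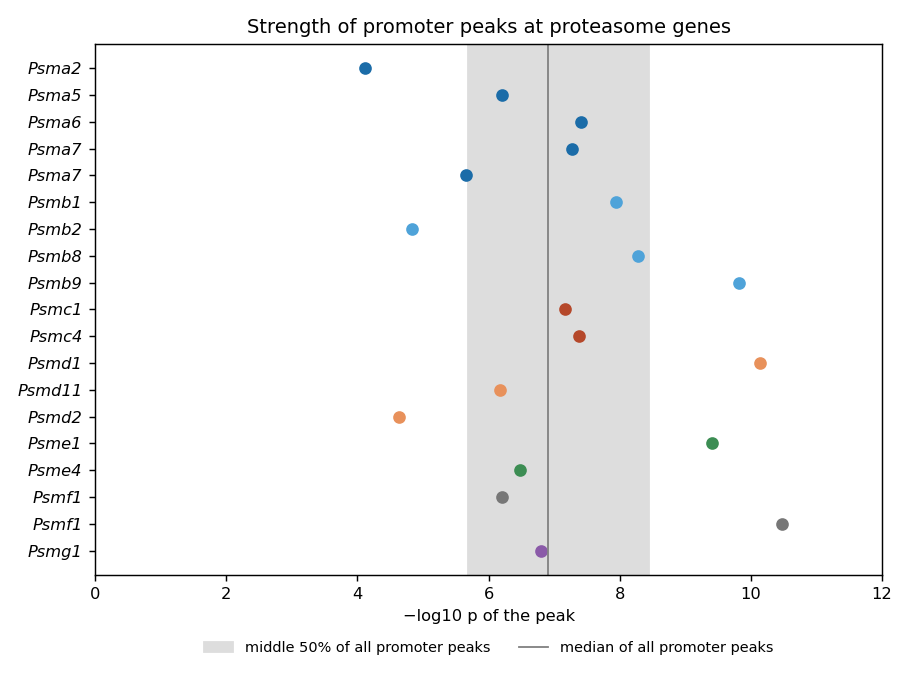
The −log10 p of each of the 19 promoter peaks (x axis) by gene (y axis, coloured by symbol group), with the median (6.90, line) and the middle 50% (5.68 to 8.44, grey) of all peaks within 1 kb of a TSS. The peaks at Psmf1, Psmd1, Psmb9 and Psme1 lie above the grey band and those at Psma2, Psmb2, Psmd2 and one of Psma7 below it.

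The 33 genes without a promoter peak were mostly far from any peak, with a median distance of 24302 bp. The nearest midpoint was within 3 kb for 1 of them, within 10 kb for 6 and over 100 kb away for 5. The gene just inside the 1 kb limit by its nearest peak was Psma5 at 502 bp, and the one just outside was Psmc2, an ATPase of the cap, at 1594 bp with a −log10 p of 9.66. Psmc2 was also the single gene of the 33 with a peak in its body. Next came Psme2 (3486 bp), the lid subunit Psmd8 (3573.5 bp), Psmc3ip (6714 bp) and Psmb11. The farthest were Psmd10, which encodes gankyrin, at 509059 bp on chromosome X, Psmd6 at 183126 bp and Psma3 at 124716 bp. Over all protein-coding genes without a promoter peak the median distance was 41777 bp.

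**Figure D4:**
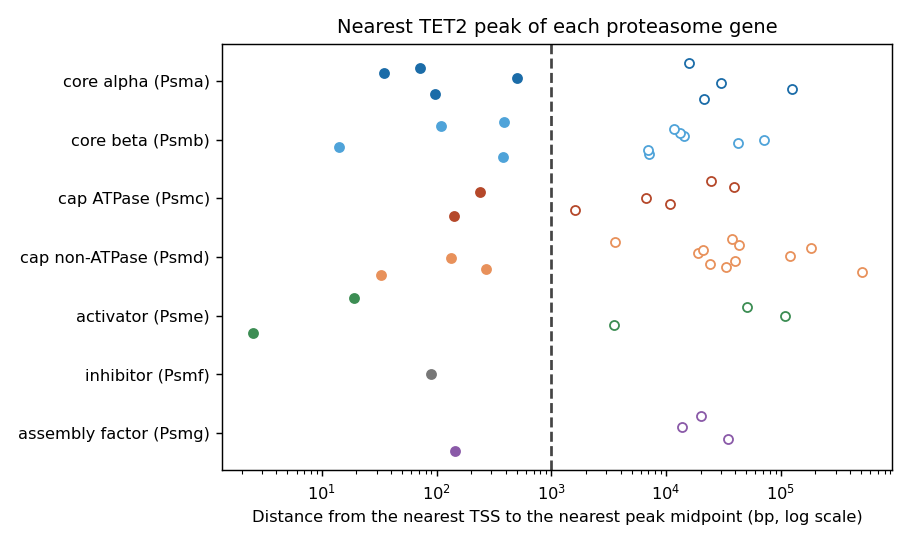
Distance in bp (log scale) from each proteasome gene's TSS to the nearest TET2 peak midpoint, by symbol group. Filled points are the 17 genes within 1 kb (dashed line) and open points the other 33, none of which lies between 1000 and 1594 bp.

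Promoters were further described by their CpG ratio, the number of CG dinucleotides over the number that the C and G content would give, in the bases from 250 before to 50 after the principal TSS. CpG-rich promoters are typical of genes used in most cells, and unmethylated CpG islands lie at many of them. A ratio of at least 0.6 was found in 78.0% of proteasome genes and in 46.5% of all protein-coding genes. All 17 genes with a promoter peak were among the 39 CpG-rich ones (43.6%, 27.8% to 60.4%), while CpG-rich protein-coding genes in general had a promoter peak in 37.9%. None of the 11 proteasome genes under 0.6 had one (exact upper limit 28.5%), against 13.0% of protein-coding genes under 0.6. The ratio was read at the principal TSS, while a peak counted at any TSS of the gene. For Psmb1 (0.972) the only promoter peak lay at -1832.5 bp from the principal TSS, so its ratio describes a window without that peak. At Psma5, Psmb8, Psmd11, Psme4 and Psmf1 the promoter peaks lay downstream of the window, so their ratios also describe sequence outside the peaks.

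The median ratio was 0.840 (interval 0.784 to 0.972) with a promoter peak and 0.728 (0.589 to 0.789) without, and the ranges overlapped widely. With a peak the lowest ratio was 0.670 at Psme1 and the highest 1.13 at Psmc4. Without a peak it ran from 0.165 at Psmb11 to 1.14 at Psmg2, and the CpG-rich Psmb5 (1.00) and Psmc2 (0.984) are examples with no promoter peak. The split at 0.6 depends on the window: over 500 bp each side of the TSS, 2 of 9 genes under 0.6 had a peak, Psmb8 and Psme1. Genes with and without a promoter peak both had a median of 5 annotated TSSs, against 3 over all protein-coding genes.

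**Figure D5:**
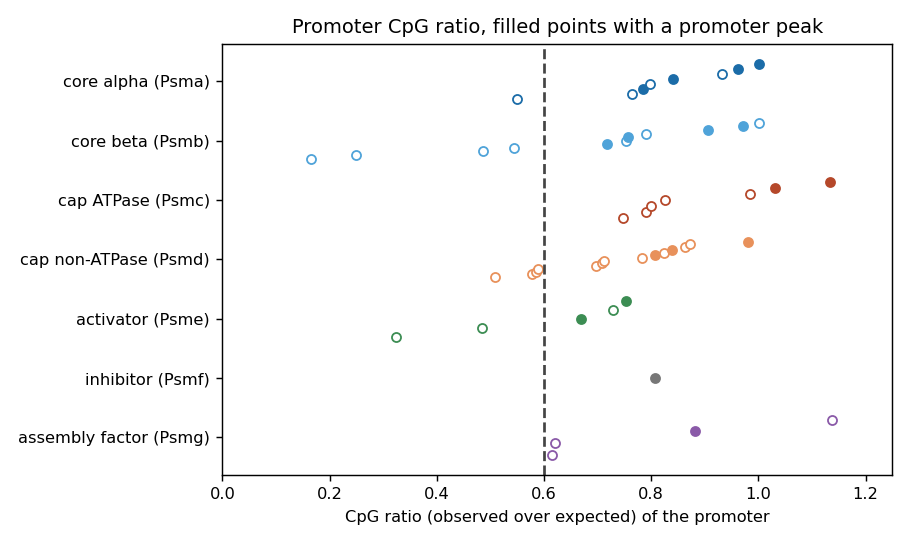
CpG ratio at the principal TSS (x axis, observed over expected) of the 50 proteasome genes by symbol group, filled where the gene had a peak within 1 kb of any TSS. No filled point lies below 0.6 (dashed line), the lowest being 0.670, and open points lie on both sides of it.

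Motifs were counted on both strands of the same promoter windows, as matches of letters and not as bound sites. CCGGAA, the core of ETS factor sites, was found in 24 of 50 proteasome promoters (48.0%), against 3942 of 21848 protein-coding promoters and 30.4% of the CpG-rich ones. It was in the window of 9 of the 17 genes with a promoter peak and of 15 of the 33 without. The windows lie at the principal TSS, from which the peak of Psmb1 lay at -1832.5 bp. At Psma5, Psmb8, Psmd11, Psme4 and Psmf1 no promoter peak reached the window either. GGGCGG, the GC box, was in 11 of 17 and 19 of 33, and in 45.3% of all promoters and 74.1% of the CpG-rich ones. CCAAT was in 5 of 17 and 13 of 33 (38.1% of all). TGACNNNGC, the core of the antioxidant response element that Nfe2l1 and Nfe2l2 bind, was in 1 of 17, Psmb2, and in 6 of 33 (12.7% of all). CGCATGCG, from the site of nuclear respiratory factor 1 (not Nfe2l1), was in 2 promoters, Psma2 and Psmg1, both with a peak (2.64% of all). CACGTG was in 1 of 17 and 6 of 33 (7.76%), AAANNGAAA, part of interferon-responsive elements, in 1 of 17 and 6 of 33 (10.7%), TATAAA in 2 of 17 and 3 of 33 (13.2%), and ATGGCGGC, from the YY1 site, in 1 of 17 and 2 of 33 (2.73%). Of the CpG-rich promoters, CCAAT was in 36.9%, TGACNNNGC in 14.8%, CGCATGCG in 4.52% and CACGTG in 11.2%. AAANNGAAA was in 6.70% of them, TATAAA in 5.71% and ATGGCGGC in 5.13%. The counts in proteasome promoters are small, and none was tested.

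A divergent protein-coding gene started within 1 kb upstream of the principal TSS of 9 proteasome genes, and 3 of them had a promoter peak, against 14 of the 41 without such a neighbour. Both shares are close to the 34.0% of all proteasome genes, and the difference was not tested. The share over all protein-coding genes with or without such a neighbour was not counted. Neighbours were read at the principal TSS and peaks at any TSS. Psmb1 therefore counts among the 41, although its peak lay 170.5 bp from the TSS of Tbp on the other strand. The 3 genes with a neighbour and a promoter peak were Psma2 with Mrpl32 (75 bp apart), Psma7 with Ss18l1 (76 bp) and Psmb9 with Tap1. With Psmb1 and Tbp, this made 4 genes whose nearest promoter peak also lay within 1 kb of another protein-coding TSS, and in 2 of them, Psmb1 and Psmb9, the other gene's TSS was nearer. Repeat-masked bases made up at most 16.5% of the nearest promoter peak of these 17 genes, with a median of 0.

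Genes that act with the proteasome but have other symbols were taken from a list of 28, of which 27 were found in the annotation. A promoter peak was present at 9 of the 27, or 33.3% (16.5% to 54.0%), beside 24.6% of all protein-coding genes. Nfe2l2 and Nfe2l1, transcription factors that drive proteasome genes, had peaks with a −log10 p of 11.8 and 6.21, and Ngly1, which helps to activate Nfe2l1, had none. Of the proteasome-associated factors, Pomp, the maturation factor of the core, had 11.0, the deubiquitinase Usp14 8.85, the adaptor Ecpas 8.65, Zfand5 8.37 and the thioredoxin Txnl1 8.31. Adrm1 and Sem1, which encode cap subunits, had no promoter peak, nor had the deubiquitinase Uchl5 or Akirin2. Among shuttle factors and Ddi2, which cleaves Nfe2l1, Rad23b had 9.20 and Ubqln1 6.04, and the other 4 had none. Neither the 6 ubiquitin and ubiquitin-activating genes nor the 3 genes of the Vcp segregase had one. The 9 values had a median of 8.65, beside 6.83 for all pairs of a protein-coding gene and a promoter peak. Of the 27 genes 7 had a value of at least 8, beside 7.61% of all protein-coding genes, and this was not tested. The list was chosen with earlier results of these data known, so these contrasts are descriptions only.

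Of other families of housekeeping genes, 26 of 98 cytosolic ribosomal protein genes (26.5%, 18.1% to 36.4%) and 9 of 46 Nduf genes of respiratory complex I (19.6%, 9.36% to 33.9%) had a promoter peak. The share of all protein-coding genes, 24.6%, lies inside both intervals. Both also overlap the interval of the proteasome genes, and the difference was not tested.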

How the data were processed

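TET2 ChIP-seq was analysed from 1 TET2 library with 1 input library as control, without replicates. The authors filtered the reads, aligned them with bowtie1 and called peaks with MACS2 2.1.0, per the methods and the submitters' processing notes. The deposited list gives each peak's interval and its −log10 p as computed by the authors' peak caller. Starts were read as 1-based. The methods name GRCm39 and the processing notes mm10. Positions were read on mm10 (GRCm38), where no peak passes a chromosome end. The stated p threshold corresponds to a −log10 p of 5, yet 15.5% of the listed peaks lie under it. The list holds no read totals, so depth is unknown.

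A gene was counted where a peak midpoint lay within 1 kb of any TSS of the gene in GENCODE M21. The principal TSS is that of the transcript ranked first by APPRIS. Sequence came from the RefSeq GRCm38.p6 genome. With 1 library no statistical test was made. Shares have exact 95% binomial intervals, and medians the order-statistic interval at that level. The members, gene lists and motifs were chosen with earlier results of these data known. Named genes were every gene with a promoter peak, the 5 nearest and 3 farthest without one, the inducible and tissue-restricted subunits, and listed pathway genes with a promoter peak. Other genes, named for contrast, were chosen after their values were seen. Alternatives were other windows, thresholds and TSS sets. Intervals were computed with scipy 1.17.1 and sequences read with pysam 0.24.0, under Python 3.11.15 (pandas 2.3.3, numpy 2.4.6, matplotlib 3.10.9). No separate values of the input were used here.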

Additional observations from a re-analysis of the deposited data

How the results depend on the processing

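No paired analysis was possible because a single TET2 library was made and nothing was tested across samples. Of the 76 values recomputed with another setting, 59 stayed within 1.5 times for a count or within the interval of the value reported for a share or median, and 17 moved. With a −log10 p of at least 8, 5 proteasome genes kept a promoter peak, of which 2 were core, 1 cap, 1 activator and 0 assembly factor genes, beside 7.61% of all protein-coding genes. Fewer peaks by construction lower these counts. With at least 5 the count was 14 (28.0%, beside 22.1% of all protein-coding genes), without Psma2, Psmb2 and Psmd2. From the start of the gene record alone it was 15 (30.0%, beside 20.1%), without Psma6 and Psmf1, so that 0 inhibitor genes remained. The median distance from the TSS was then 200 bp. With RefSeq TSSs 17 genes had a peak (34.0%, beside 22.2%), Psmc2 replacing Psmb1, and the median distance was 153 bp. A window of 500 bp left out Psma5 (32.0%, beside 21.6%). One of 3 kb added Psmc2 (36.0%, beside 28.5%). The median CpG ratio with a peak was 0.768 over 500 bp each side of the TSS, against 0.695 without one. The cause of these shifts in distance and CpG ratio was not tested. The share of all protein-coding genes ran from 7.61% to 28.5% over the alternatives. The depth behind single peaks is unknown.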
